A study of Mus musculus with 18 samples.

Results

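The cells described here are mouse bladder fibroblasts that carried more unique molecular identifiers (UMIs, each counting 1 captured RNA molecule) of Pi16 and Mfap5 than of the genes marking 2 other fibroblast groups. A barcode was taken as a fibroblast when it had at least 500 UMIs, with Dcn, Col1a1, Col1a2, Col3a1 and Lum together making up at least 1% of them and Krt7, Krt8, Krt18 and Krt19 less than 0.5%. A member had at least 3 UMIs of Pi16 and Mfap5 combined, and this sum was at least 2 times that of Car3 and Cxcl14 and at least 2 times that of Inmt, Sult1e1 and Penk. Of the 35289 barcodes in 7 cell libraries, 17779 passed as fibroblasts and 4917 of these (27.7%) were members. The other 12862 fibroblasts served as the comparison. They held 6858 cells in which Car3 and Cxcl14 led by the same thresholds, 2355 in which Inmt, Sult1e1 and Penk led, and 3649 in which no sum led.

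All animals were C57BL/6 mice, and each library was a pool of animals. Whole bladders gave 5 libraries: 1 from 3 males at 22 months, 1 from 3 males at 3 months, 2 from 2 females and 2 males at 12 months, and 1 from 2 females and 2 males at 24 months. Of 2 libraries at 14 months, called detrusor libraries here, the first was of the bladder muscle (detrusor) only, from 3 females, and the second was labelled as whole bladder with enrichment for detrusor, from 2 females and 2 males. They held 0 and 859 keratin-rich cells (keratins at 0.5% of UMIs or more, fibroblast genes under 1%), and the Car3 and Cxcl14 group made up 1.16% and 40.3% of their fibroblasts. A library of nuclei from whole bladders at 12 months (2 females and 2 males), 4 spatial sections of male bladders (2 at 22 and 2 at 14 months, 4 males at each age) and 6 bulk RNA libraries at 12 months (3 of intact and 3 of dissociated bladder, 3 females each) were not used in choosing the members. No group carried a genetic change or a drug treatment, per the labels, and the labels do not tie a library to a single animal. The labels also do not say whether the 2 libraries at 12 months came from separate pools. They are counted as 2 libraries here, so n, SD and p describe the spread between libraries, which for that pair may be technical.

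Fibroblasts build and remodel the collagen and elastic matrix of the bladder wall. In many mouse tissues, Pi16 fibroblasts are found in the adventitia, the connective tissue sheath around larger vessels and organs, and have been described as a progenitor-like or universal state marked by Dpp4, Cd34 and Ly6a. Pi16 encodes a membrane-anchored peptidase inhibitor, Mfap5 a glycoprotein of the microfibrils that scaffold elastic fibres, and Clec3b tetranectin, a plasminogen-binding protein. Clec3b had no place in the rule. The 3 genes lie apart in GRCm38.p6: Pi16 on chromosome 17 from 29318796 to 29328903, Mfap5 on chromosome 6 from 122513584 to 122529290, and Clec3b on chromosome 9 from 123150946 to 123157432.

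The promoters of 4 genes that carry the results are shown. Pi16 defines the members. Sbsn, Dmkn and Krtdap are adjacent genes of chromosome 7, best known from the stratified epidermis, that were all higher in members than in other fibroblasts. Each line gives the 250 bases before a RefSeq start site in GRCm38.p6, on the + strand, from chr17:29318632-29318881 (Pi16), chr7:30751221-30751470 (Sbsn), chr7:30763506-30763755 (Dmkn, the first of 3 entries) and chr7:30787655-30787904 (Krtdap). Capitals mark every match to 4 motifs searched on both strands: the TATA box as TATAAA, the CCAAT box as CCAAT, the GC box as GGGCGG, and TGANTCA. The last, with N any base, is a loose form of the AP-1 site TGAGTCA or TGACTCA, bound by Fos and Jun factors.
Pi16: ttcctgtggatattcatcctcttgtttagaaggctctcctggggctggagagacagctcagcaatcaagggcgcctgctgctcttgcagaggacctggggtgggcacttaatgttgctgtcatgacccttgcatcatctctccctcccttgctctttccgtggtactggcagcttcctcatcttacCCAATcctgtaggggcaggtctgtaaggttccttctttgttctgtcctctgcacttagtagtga
Sbsn: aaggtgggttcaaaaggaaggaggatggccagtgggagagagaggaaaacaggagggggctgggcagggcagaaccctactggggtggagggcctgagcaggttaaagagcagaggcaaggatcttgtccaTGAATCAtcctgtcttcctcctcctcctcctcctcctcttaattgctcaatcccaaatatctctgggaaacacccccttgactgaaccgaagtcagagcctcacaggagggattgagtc
Dmkn: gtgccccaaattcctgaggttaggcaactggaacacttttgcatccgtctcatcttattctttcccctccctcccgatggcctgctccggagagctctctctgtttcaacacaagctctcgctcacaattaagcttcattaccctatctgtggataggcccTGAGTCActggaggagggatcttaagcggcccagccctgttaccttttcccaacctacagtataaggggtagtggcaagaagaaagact
Krtdap: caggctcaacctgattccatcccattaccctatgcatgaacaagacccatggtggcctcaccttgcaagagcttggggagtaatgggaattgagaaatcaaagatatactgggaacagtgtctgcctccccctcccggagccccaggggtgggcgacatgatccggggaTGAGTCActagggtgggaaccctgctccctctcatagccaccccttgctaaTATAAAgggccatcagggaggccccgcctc
The Pi16 promoter held CCAAT 64 bases before the start and none of the other 3 motifs. These distances are to the start site of the printed promoter entry, which for Sbsn lies 18.8 kb inside the annotated gene. TGANTCA lay 119 bases before that start site of Sbsn, 89 before that of Dmkn (91 and 82 in the other 2 Dmkn entries) and 81 before that of Krtdap. The Sbsn match read TGAATCA, and those of Dmkn and Krtdap read TGAGTCA. The Dmkn matches at 89 and 91 bases are the same site, seen from start sites 2 bases apart. Krtdap also held TATAAA 30 bases before its start. Among 32851 RefSeq promoters of 27025 genes, windows of the same length held TGANTCA in 6.75%, the CCAAT box in 33.9%, the GC box in 32.7% and the TATA box in 12.4%. No matches overlapped, and a match describes letters only. Mfap5 and Clec3b had no promoter sequence here.

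The 7 cell libraries held between 13281422 and 55374101 UMIs each, and the median member had 1573 to 9926 UMIs against 1652 to 11657 in other fibroblasts of the same library. The 2 male libraries were the shallowest in cells, and their tables list 27775 genes with 14-base barcodes, against 27998 genes in the other whole-bladder tables and 31053 in the detrusor tables. Over the 28 pairs of the 8 cell and nuclei libraries, 108 barcodes were shared, 64 of them by the 2 male libraries, and 1 shared barcode was a member in both. The other fibroblasts of the detrusor-only library differed in makeup: 42 of its 3607 fibroblasts (1.16%) were led by Car3 and Cxcl14 against 29.8% to 63.3% in the other 6 libraries. Values of this library are therefore given beside the results.

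The members were chosen by their counts of Pi16, Mfap5 and the rival genes, so the levels of these genes are a description. Pi16 stood at 5197 ± 2250 counts per 1000000 UMIs (CPM) in members and 700 ± 248 in other fibroblasts (mean ± SD, n = 7 libraries), and Mfap5 at 1607 ± 714 against 250 ± 68.1. Both genes were counted in the same cell in 76.2% to 91.9% of members. Pi16 UMIs were not limited to members: 49.0% to 82.3% of other fibroblasts and, in the 6 libraries that held keratin-rich cells, 13.03% to 48.3% of those had at least 1 Pi16 UMI. Whether the RNA counted in these barcodes was made by the cells themselves was not tested. Clec3b was compared at the edge of the rule, over all libraries together, first among fibroblasts that passed both ratios. It stood at 942 CPM in the 128 cells with exactly 2 UMIs of Pi16 and Mfap5, 899 in the 109 cells with exactly 3, 1284 in the 119 with exactly 4 and 3024 in the 2685 with 20 or more. A further 5535 fibroblasts had 3 or more such UMIs but failed a ratio, and they held Clec3b at 1802 CPM. The libraries differ in level and in their share of each bin. From exactly 2 to 20 or more UMIs, Clec3b went from 1802 to 3427 CPM in the 22-month males, from 450 to 3243 in detrusor only and from 1339 to 2070 in the detrusor-enriched library.

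Members were found in every library. They made up 31.7% of fibroblasts in the 22-month male whole bladders, 10.8% in the 3-month males, 40.3% and 43.3% in the 12-month libraries, 31.0% at 24 months, 37.7% in detrusor only and 24.8% in the detrusor-enriched library. Because deeper cells reach 3 UMIs more easily, cells were also thinned to 2000 UMIs each, which left out 2220 and 2631 shallow fibroblasts of the 22-month and 3-month male libraries and 0 to 266 in each of the others. The shares then were 26.6%, 9.88%, 38.9%, 39.7%, 29.7%, 36.4% and 23.4% in the same order. The Car3 and Cxcl14 share meanwhile went from 43.2% to 54.9% in the 22-month males and from 63.3% to 81.4% in the 3-month males. Thinned shares of these male libraries thus describe their deeper cells alone. The 3-month male library was the lowest and the 12-month libraries the highest.

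**Figure D1:**
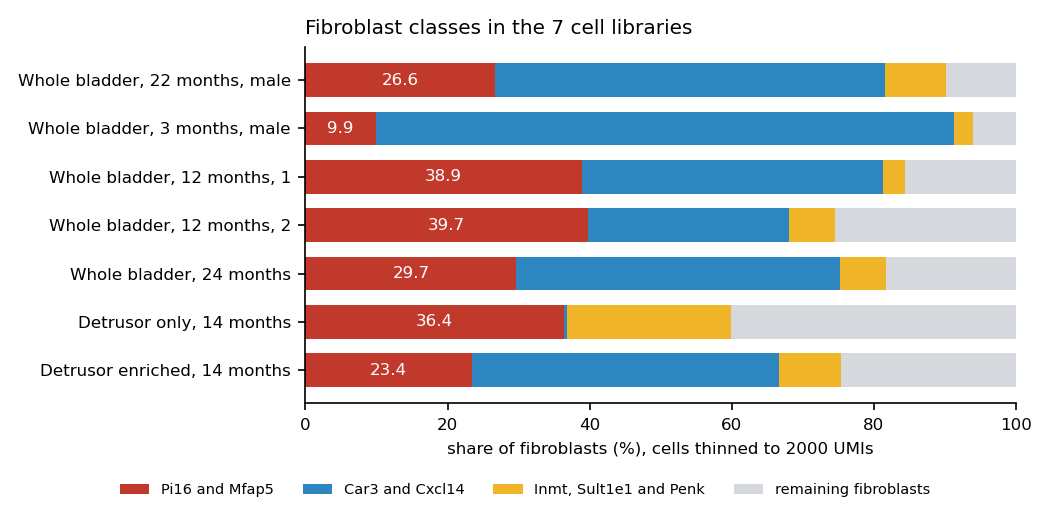
Share (percent, horizontal axis) of 4 fibroblast groups among fibroblasts thinned to 2000 UMIs, 1 bar per cell library. Members range from 9.88% in the 3-month males to 39.7% in a 12-month library, and the Car3 and Cxcl14 group is nearly missing from detrusor only (0.469%).

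Over all libraries, neither tissue preparation nor age separated these shares. At 2000 UMIs per cell, members made up 29.0% ± 12.1 of fibroblasts in the whole-bladder libraries (SD, n = 5) and 29.9% ± 9.14 in the detrusor libraries (n = 2), with p = 1 in a two-sided exact permutation test whose smallest possible p is 0.0476. In the libraries of 22 and 24 months the share was 28.2% ± 2.17 (n = 2) and in those of 3 and 12 months 29.5% ± 17.0 (n = 3), again with p = 1 in an exact permutation test that cannot go below 0.1. The sign of both differences depended on single libraries: without the 3-month males, whole bladder lay 3.84 percentage points above detrusor, and without replicate 2 at 12 months the older libraries lay 3.76 points above the younger ones. Without the 3-month males the older libraries lay below the younger ones by more, at 28.2% ± 2.17 against 39.3% ± 0.558 (n = 2 and 2). The groups then did not overlap, and the exact permutation p of 0.333 is the smallest that 2 libraries against 2 can give. In the 3-month males, 40.4% of thinned members and 44.3% of keratin-rich cells carried a Car3 UMI, as did 52.3% and 54.4% in the 22-month males, against 0.1% to 4.9% of members in the other 5 libraries. Car3 counts enter the ratio, and their part in the lower share of the 3-month males was not tested.

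Against the other fibroblasts, members were high in surface and secreted proteins of adventitial fibroblasts and in 3 epidermal-type secreted proteins, and low in Tnc, Dkk2 and Bmp5 among others. Counts were summed per library and class and tested with edgeR's quasi-likelihood test with the library as a block. Of 12380 genes tested, 2290 (18.5%) passed a Benjamini-Hochberg adjusted p of 0.05, 1034 (8.35%) higher and 1256 (10.1%) lower in members, and the median log2 fold change over all genes was -0.03. The count fell to 1396 without the detrusor-enriched library. The cells were split on Pi16, Mfap5 and their rivals, and any gene that varies along with these will differ. The tests ask only whether a difference recurs across libraries and are no evidence that the cells form a class. The 16 genes used in the rule were not tested. Ranges of CPM did not overlap for 74 of the tested genes with members higher (0.598%) and for 80 with members lower (0.646%), and 900 genes (7.27%) were higher and 1094 (8.84%) lower in members in all 7 libraries.

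Clec3b, which the rule did not use, was higher in members in every library. Its level in members ran from 2091 to 4228 CPM with a median of 3108, and in other fibroblasts from 552 to 2458 with a median of 777. The highest value of the other fibroblasts, 2458, came from detrusor only and was the only overlap with members. The difference was 1.85 ± 0.27 on the log2 scale (SE, n = 7, adjusted p = 0.00452), with members higher in 7 of 7 libraries. After thinning to 2000 UMIs, 88.5% to 98.0% of members had a Clec3b UMI, against 11.8% to 42.4% of other fibroblasts in 6 libraries, 87.7% in detrusor only, and 0.7% to 8.1% of keratin-rich cells.

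Several surface proteins known from adventitial fibroblasts rose. Of 2 others described with their list, Procr fell, and Dpp4 was higher in members but missed the threshold. Cd34, a sialomucin of stem and stromal cells, ran from 907 to 2111 CPM in members (median 1077) and from 164 to 645 in other fibroblasts (median 285). The 2 ranges did not overlap, and Cd34 differed by 2.11 ± 0.29 (log2, SE; adjusted p = 0.00304). Cd55, which shields cells from complement, stood at 487 to 1159 CPM in members (median 577) and 55.9 to 537 in other fibroblasts (median 81.1). Only the other fibroblasts of detrusor only reached the level of members, and Cd55 rose by 2.49 ± 0.25 (adjusted p = 0.000719). Scara5, a scavenger receptor that takes up ferritin, ran from 412 to 747 CPM (median 649) against 74.9 to 236 (median 101). Its ranges stayed apart, and the log2 difference was 2.42 ± 0.29 (adjusted p = 0.00173).

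Other genes taken by the naming rule rose with them. Pcolce2, an enhancer of procollagen processing, stood at 503 ± 131 CPM in members and 133 ± 98.5 in other fibroblasts, and rose by 2.13 on the log2 scale. Tmem100, a membrane protein known from Bmp signalling in endothelium, stood at 261 ± 228 against 47.0 ± 41.5 and rose by 2.46. Tppp3, a tubulin-binding protein, stood at 426 ± 253 against 93.3 ± 57.0 and rose by 2.14. The levels of Tmem100 and Tppp3 varied widely between libraries. Asap2, which activates Arf GTPases, rose by 2.05 with ranges that did not overlap (31.7 to 92.0 against 6.08 to 25.5 CPM). Efhd1, a calcium-binding mitochondrial protein, rose by 3.01 from a low level, 7.58 ± 7.58 against 73.4 ± 77.6 CPM in members.

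**Figure D2:**
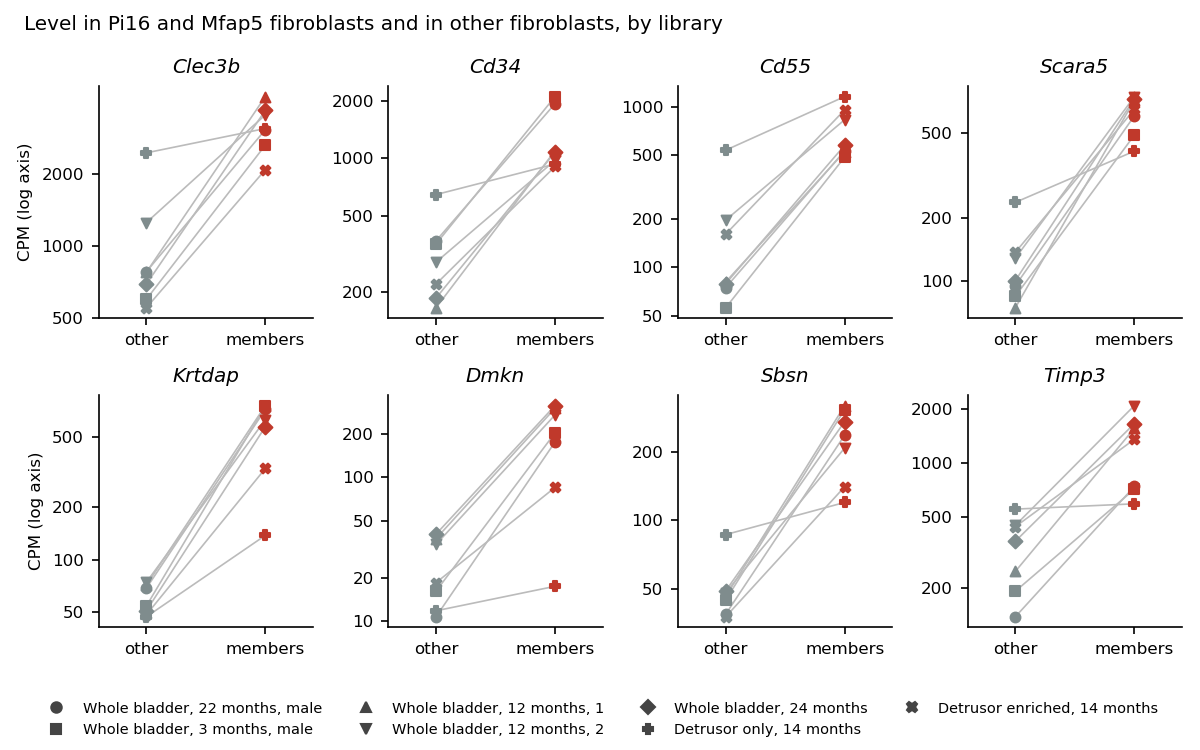
CPM on a log axis for 8 genes in other fibroblasts (grey) and members (red), with a line joining the 2 values of each library and a marker shape per library. Members lie above other fibroblasts in each library for these genes, and the shortest rise in each panel is that of detrusor only.

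The Sbsn, Dmkn and Krtdap genes rose as a set of neighbours. Krtdap, a small secreted protein named for keratinocyte differentiation, ran from 138 to 760 CPM in members (median 632) and from 47.2 to 74.3 in other fibroblasts (median 54.4). The ranges did not overlap, and Krtdap rose by 3.08 ± 0.28 (log2, SE; adjusted p = 0.000489). Sbsn (suprabasin) ran from 120 to 319 CPM (median 237) against 37.7 to 86.6 (median 46.3) and rose by 2.16 ± 0.31 (adjusted p = 0.00397), again without overlap. Dmkn (dermokine) ran from 17.5 to 316 CPM (median 204) against 10.7 to 40.2 (median 18.5). Its ranges overlapped because members of detrusor only held 17.5 CPM, and the difference was 2.77 ± 0.45 (adjusted p = 0.00717). Epithelial cells held less of these genes than members did in the 6 libraries that had both. In keratin-rich cells Krtdap reached at most 14.0 CPM, Sbsn 33.0 and Dmkn 41.3, and 0 of the 7 tested urothelial markers differed between members and other fibroblasts.

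The 3 genes lie in a row on chromosome 7 of GRCm38.p6, over 58.4 kb from the first annotated base of Sbsn to the end of Krtdap. Of the 4 annotated genes on each side, 1 had enough counts to be tested. This was Tmem147, an endoplasmic reticulum membrane protein, with 2566 UMIs in members, 5918 in other fibroblasts and a log2 difference of 0.13 that missed the threshold (adjusted p = 0.326). The other 7, among them the stomach proton pump gene Atp4a, the fatty acid receptor genes Ffar1, Ffar2 and Ffar3 and the B cell gene Cd22, held 0 to 11 UMIs in either group. Members held 4364 UMIs of Sbsn, 2460 of Dmkn and 9184 of Krtdap, against 3405, 1025 and 3357 in the more numerous other fibroblasts.

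**Figure D3:**
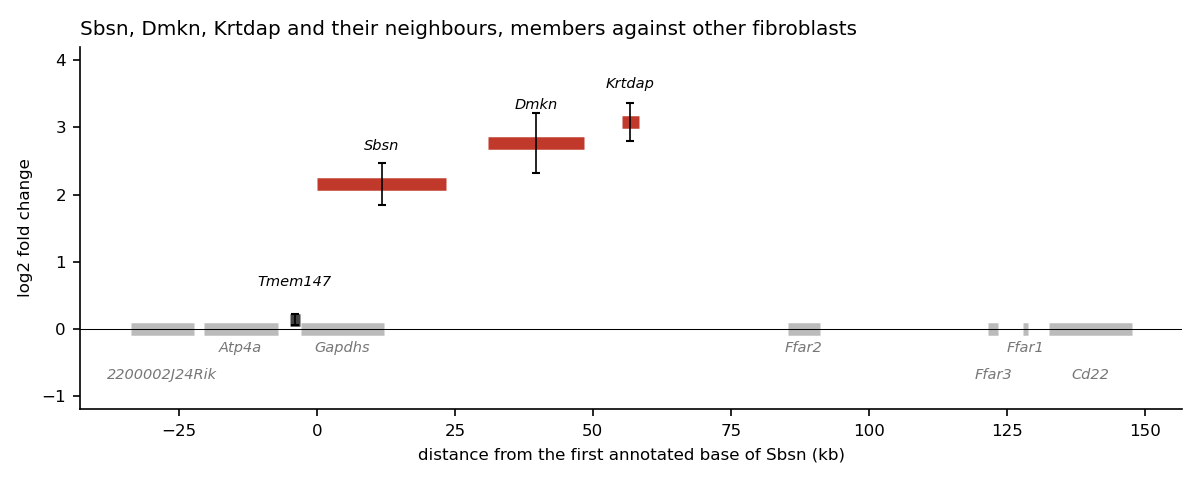
Log2 fold change of members against other fibroblasts (vertical axis, bars are SE) for 11 neighbouring genes by distance in kilobases from the first annotated base of Sbsn. Sbsn, Dmkn and Krtdap (red) rose by 2.16, 2.77 and 3.08, Tmem147 (dark) did not pass the test, and grey genes had too few counts to be tested and are drawn at 0.

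Bglap2, an osteocalcin gene, had the largest named rise (4.03 ± 0.29, adjusted p = 4.2e-05), at 0.079 to 311 CPM in members and 0 to 17.3 in other fibroblasts. Its level was uncertain in identity, since the mouse osteocalcin genes are nearly identical copies and the counting could split reads among them. Detrusor only held almost none of it in either group.

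The largest falls covered genes of several functions. Tnc (tenascin C, an adhesion-modulating matrix protein) stood at 0 to 12.4 CPM in members (median 3.10) and 0.734 to 419 in other fibroblasts (median 302), a log2 difference of -5.78 ± 0.59 (adjusted p = 0.00116). The low value of the other fibroblasts was that of detrusor only, where Dkk2 and Bmp5 were also nearly missing from both groups. Dkk2, a secreted Wnt inhibitor, had a median of 8.27 CPM in members and 277 in other fibroblasts (-4.76 ± 0.38, adjusted p = 0.000253). In detrusor only it stood at 0.158 CPM in members and 0.63 in other fibroblasts. Bmp5, a Bmp ligand, had medians of 12.6 and 244 CPM (-3.97 ± 0.25, adjusted p = 1.9e-05), and Bmp5 in detrusor only stood at 0.158 and 1.05 CPM. Ptn, the growth factor pleiotrophin, was the single gene of the 10 falls taken by the naming rule whose ranges did not overlap, at 0 to 26.1 CPM in members and 68.5 to 545 in other fibroblasts (-3.63 ± 0.54). The plasma retinol carrier gene Rbp4 fell by 4.27, the protease-like gene Prss35 by 4.14, the amino acid transporter gene Slc7a8 by 4.05, the matrix gene Spon1 by 3.69 and the urea transporter gene Slc14a1 by 3.38. Some of these calls were lost under alternatives: Rbp4, Slc7a8 and Ptn with both male libraries left out (adjusted p = 0.0637, 0.0682 and 0.0551), Spon1 in the male libraries alone (0.0984) and Slc14a1 without the library block (0.0537).

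The other fibroblasts are a mixture, so members were also set against its 2 named groups. Against the Car3 and Cxcl14 group, 2992 of 10810 genes passed (27.7%), 1489 higher (13.8%) and 1503 lower (13.9%). All 13 rises and 10 falls of the naming rule were among them. Clec3b ran from 27.9 to 302 CPM in the Car3 and Cxcl14 group, below every library of members, and the difference was 5.41 on the log2 scale. Krtdap, at 9.09 ± 7.35 CPM in that group, differed by 5.77 ± 0.31 (adjusted p = 7.6e-11), Pcolce2 by 5.83 and Adamtsl3, a matrix protein of the fibrillin network, by 5.90. Gatm, the first enzyme of creatine synthesis, fell furthest of the 5 genes named as lower by the rule for this contrast, at 4.22 ± 5.66 CPM in members and 197 ± 253 in the Car3 and Cxcl14 group (-5.05 ± 0.41, adjusted p = 2.1e-08).

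Against the Inmt, Sult1e1 and Penk group the members differed in fewer genes, and several of their leading genes did not pass. In this contrast 1005 of 10810 genes passed (9.3%), 524 higher (4.85%) and 481 lower (4.45%). The balance moved with the scaling, to 383 higher and 567 lower with median-ratio size factors and to 532 and 726 with DESeq2. Clec3b stood at 1572 to 3020 CPM in that group, and the difference of 0.25 missed the threshold (adjusted p = 0.816). Cd34 stood at 733 ± 337 CPM in the Inmt, Sult1e1 and Penk group and at 1393 ± 583 in members of the same 5 libraries, a log2 difference of 0.96 ± 0.38 (adjusted p = 0.137). Pcolce2 (0.59) and Tppp3 (0.75) also missed the threshold. The remaining 9 named rises passed, as did 2 of the 10 falls, Ptn and Slc7a8. This group lacked the 2 libraries of 12 months, where it held 12 and 7 cells, and the count of genes fell to 410 without the detrusor-enriched library and 436 without the 22-month males. Of 30 dissociation response genes 14 were lower and 0 higher in members in this contrast, among them Fos, Jun and Egr1. Of 5 mesothelial markers Lrrn4 and Nkain4 were higher (by 7.81 and 2.26), and of 7 endothelial markers Kdr, Emcn and Flt1 were lower. Whether these cell-type and stress genes had a part in the other differences was not tested.

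Sbsn, Dmkn and Krtdap passed as higher in members against both groups, with an exception in detrusor only. Against the Car3 and Cxcl14 group, Dmkn stood at 20.1 ± 23.6 CPM (3.54 ± 0.78, adjusted p = 0.00237) and Sbsn at 55.1 ± 71.5 (2.54 ± 0.46, adjusted p = 0.000429), each higher in members in 6 of 7 libraries. In detrusor only, where that group held 42 cells, Dmkn stood at 17.5 CPM in members and 67.8 in the group, and Sbsn at 120 and 215. The Inmt, Sult1e1 and Penk group held less of all 3 genes. Krtdap stood at 23.5 to 130 CPM in the Inmt, Sult1e1 and Penk group, below all members, a difference of 2.89 ± 0.30 (log2, SE; adjusted p = 1.1e-05). Dmkn stood at 12.3 ± 14.3 CPM there (4.13 ± 0.99, adjusted p = 0.0139) and Sbsn at 57.3 ± 26.0 (2.17 ± 0.53, adjusted p = 0.0145). The Dmkn call was lost without the 22-month males (adjusted p = 0.0894) or without the detrusor-enriched library (0.096). Bglap2 (6.35), Akr1c18, a progesterone-metabolising enzyme (3.31), and Pex5l, a regulator of pacemaker channels (2.88), were the other named rises. The Akr1c18 call was lost with DESeq2 (adjusted p = 0.139) or without the 3-month males (0.0502). Dlk1, a Notch-related inhibitor of fat cell formation, fell furthest, from 383 ± 307 CPM in that group to 13.8 ± 14.4 in members (-5.01 ± 0.67, adjusted p = 0.00019). The collagen gene Col6a5 differed by -4.03, the stromelysin gene Mmp3 by -3.77, the secreted antioxidant enzyme gene Gpx3 by -3.27 and the neurotrophin receptor gene Ntrk2 by -3.22.

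**Figure D4:**
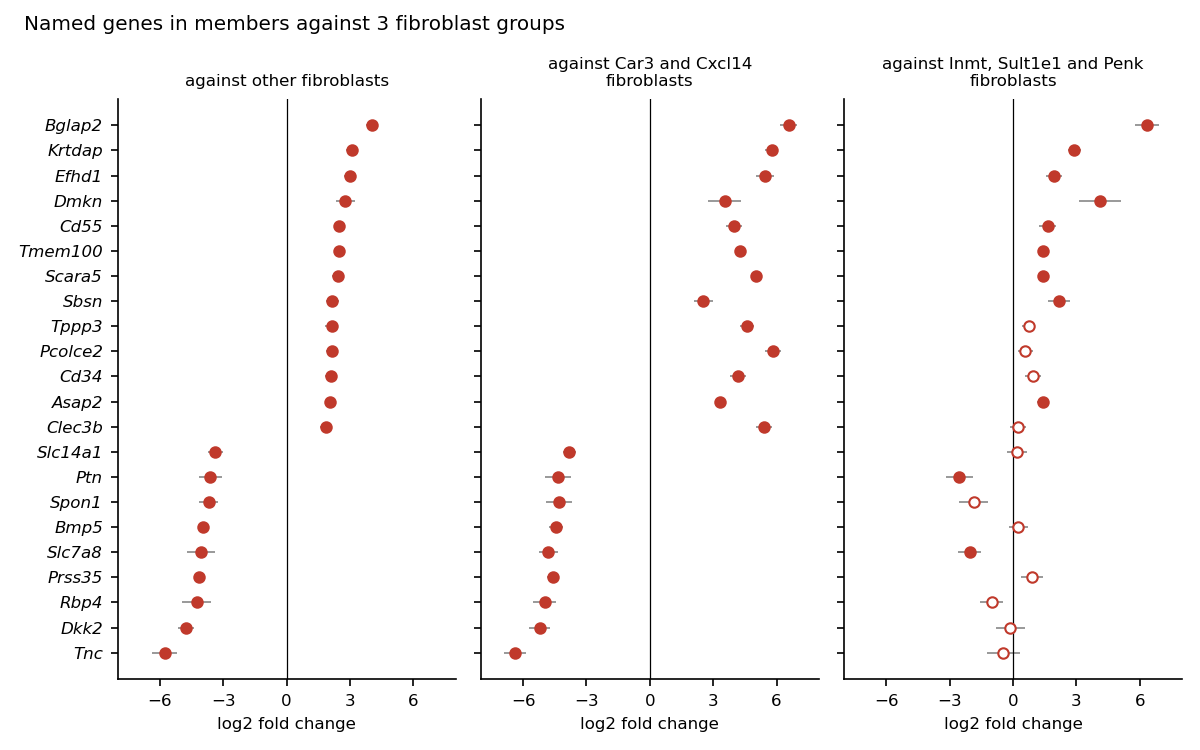
Log2 fold change (horizontal axis, bars are SE) of 22 named genes in members against other fibroblasts, the Car3 and Cxcl14 group, and the Inmt, Sult1e1 and Penk group. Filled points had an adjusted p under 0.05: 22, 22 and 11 of the 22 genes in the 3 comparisons.

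Of 989 genes called higher against all other fibroblasts and testable by group, 898 were also called higher against the Car3 and Cxcl14 group and 311 against the Inmt, Sult1e1 and Penk group. Of 1155 called lower, the counts were 976 and 233. These comparisons share the member samples. The counts describe them and are no test of a difference between them.

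Gene lists were read against the background of 8.35% higher and 10.1% lower. Of 20 adventitial or universal fibroblast genes, 17 rose and 1 fell (median log2 difference 1.63, against -0.03 over all genes). The list was written with results of these data known. Igfbp6, a binding protein of insulin-like growth factors, stood at 2638 CPM in members and 1575 in other fibroblasts and rose by 0.82, and Ly6a, the Sca-1 surface antigen, rose by 0.68 from 1103 to 1774. Dpp4, a surface peptidase used to sort such cells, stood at 36.0 ± 12.7 against 17.6 ± 11.3 CPM (1.04 ± 0.31, adjusted p = 0.0523) and Dpt, a collagen-binding protein, at 381 ± 119 against 217 ± 194 (adjusted p = 0.0879), and both missed the threshold. Procr, the protein C receptor, went the other way, 35.2 ± 32.1 against 122 ± 65.7 CPM, and fell by 1.74. In the Inmt, Sult1e1 and Penk contrast 8 of the 20 rose and 0 fell, and in the Car3 and Cxcl14 contrast 16 rose and 1 fell. Igfbp6 was called in neither of these contrasts, and Ly6a was called only against the Car3 and Cxcl14 group.

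The elastic fibre genes, the textbook partners of Mfap5, moved in both directions. Of 17 tested, 9 rose and 5 fell (median 0.69). Fbn1, the fibrillin of the microfibril core, rose by 1.90 (336 ± 87.6 against 95.3 ± 51.0 CPM), Eln, elastin itself, by 1.02 (118 ± 61.4 against 60.3 ± 33.3) and Fbln1, a fibulin, by 1.04 (3439 against 1716). The cross-linking enzymes split: Loxl1 rose by 1.03, whereas Lox fell by 1.44 and Loxl2 by 0.40. Mfap2, the microfibril partner gene of Mfap5, fell by 0.53 and was lower in members in 7 of 7 libraries. Against the Inmt, Sult1e1 and Penk group alone, 2 of the 17 genes rose and 2 fell (median 0.14).

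Among collagen chains outside the gate, 4 of 14 rose and 9 fell (median -0.73). Col14a1, a fibril-associated collagen, rose by 1.77 ± 0.29 (adjusted p = 0.00656), with medians of 620 CPM in members and 156 in other fibroblasts, and Col8a1, a short-chain collagen of vessels, rose by 1.21 (213 against 82.3 CPM). The 3 chains of collagen VI, a microfibrillar collagen, on the list fell, Col6a1 by 0.78 (477 against 815 CPM), as did Col6a5, a further chain that is not on the list, by 1.80, and so did the basement membrane chains Col4a1 and Col4a2. The small leucine-rich proteoglycans outside the gate, which bind collagen fibrils, included 0 rises and 2 falls of 8, Prelp by 1.01 and Fmod. Against the Inmt, Sult1e1 and Penk group alone, 1 of the 14 listed collagen chains rose, Col8a1, and 0 fell (median -0.11). Col14a1 was not called there, while Col6a5, outside the list, fell by 4.03. Of the 8 proteoglycans, 0 rose and 3 fell in that contrast (Fmod, Aspn and Ecm2). Against the Car3 and Cxcl14 group 3 of the 8 rose and 3 fell.

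Matrix glycoprotein and hyaluronan genes gave 5 rises and 5 falls of 18. Tnxb, tenascin X, rose by 1.42 (378 against 167 CPM), whereas Tnc fell. Has1, a hyaluronan synthase, rose by 1.69 (362 against 104 CPM) while its level in members ran from 38.0 to 609 CPM. Of 20 matrix protease and inhibitor genes, 7 rose and 6 fell. Timp3, an inhibitor held in the matrix, ran from 592 to 2104 CPM in members (median 1362) and from 138 to 553 in other fibroblasts (median 365), ranges that did not overlap, and rose by 1.90 ± 0.32 (adjusted p = 0.00807). Mmp2, the gelatinase, fell by 1.55, at 325 ± 104 against 1054 ± 549 CPM. Against the Inmt, Sult1e1 and Penk group alone, 1 of the 18 matrix glycoprotein and hyaluronan genes rose and 2 fell. Of the 20 protease and inhibitor genes, Timp3 rose there and 3 fell. Tnxb, Tnc, Has1 and Mmp2 were not called in that contrast.

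Of 24 Wnt, Bmp and hedgehog genes, 14 fell and 4 rose against all other fibroblasts (median -0.95). Against the Car3 and Cxcl14 group 12 fell and 4 rose (median -0.99), whereas against the Inmt, Sult1e1 and Penk group 3 fell and 2 rose (median 0.30). The hedgehog target genes Ptch1, Gli1 and Hhip fell by 1.23, 0.79 and 4.15 against all other fibroblasts, the ligand genes Bmp2 and Bmp7 by 2.01 and 2.11, and Wnt5a, a non-canonical Wnt, by 1.12. Against the Inmt, Sult1e1 and Penk group alone, Bmp7 was called higher in members and Wnt5a lower. Ptch1, Gli1, Hhip and Bmp2 were not called there. Among the 4 rises, Wnt2 was the most abundant (609 ± 374 against 471 CPM, 0.44), and it did not pass against the Car3 and Cxcl14 group (0.41, adjusted p = 0.244) but rose by 1.82 against the Inmt, Sult1e1 and Penk group. Wnt2b rose by 1.66, Wnt11 by 0.94 and Sfrp4, a secreted Wnt modulator, by 1.96. Of 17 TGF-beta and insulin-like growth factor genes, 4 rose and 4 fell, with Igfbp4 up by 0.99. Igfbp4 was not called against the Inmt, Sult1e1 and Penk group.

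Lipid, retinoid and prostaglandin genes gave 11 falls and 4 rises of 19 (median -0.43). Aldh1a2, which makes retinoic acid, fell by 3.09 (10.3 ± 8.75 against 127 ± 62.6 CPM), and Rbp4 is described above. Against the Inmt, Sult1e1 and Penk group alone, 2 of the 19 rose, Aldh1a2 and Ptgs1, and 5 fell (median -0.33). Aldh1a2 thus went the other way in that contrast. Of 22 chemokine, cytokine and scavenging receptor genes, 4 rose and 3 fell. Il33, an alarmin cytokine, rose by 0.98 (117 ± 52.3 against 59.3 ± 31.3 CPM), Csf1, the macrophage growth factor, by 0.95 and the chemokine-scavenging receptor gene Ackr3 by 1.03, whereas Il6 fell by 1.28. Against the Inmt, Sult1e1 and Penk group alone, 2 of 21 rose, Ackr3 among them, and 2 fell, Il6 among them. Il33 and Csf1 were not called there. Of 11 complement genes, 3 rose, with Cfb and Cd55 among them, and C2 fell. Of these genes only Cd55 was called against the Inmt, Sult1e1 and Penk group, as higher.

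Transcription factor genes gave 5 rises and 5 falls of 20. Osr1, a factor of mesenchymal progenitors, had medians of 262 and 122 CPM and rose by 1.24 ± 0.14 (adjusted p = 0.000156). Klf4 rose by 0.71 and Ebf2, a factor of adipocyte precursors, by 1.45. Foxf1, a hedgehog-responsive factor of visceral mesenchyme, fell by 1.05 (medians 124 and 326 CPM), and Foxf2, Nr2f2, Hoxa10 and Meox1 fell too. Against the Inmt, Sult1e1 and Penk group alone, 2 of 18 factors rose, Osr1 and Creb5, and 2 fell, Osr2 and Ebf1. Klf4, Ebf2, Foxf1, Foxf2, Nr2f2 and Hoxa10 were not called there, and Meox1 was not tested. Of 12 common fibroblast genes, 6 rose and 1 fell. Gsn, the actin-severing protein gelsolin, was the most abundant, at 23570 CPM in members and 11270 in other fibroblasts (1.16), and did not pass against the Inmt, Sult1e1 and Penk group (-0.35, adjusted p = 0.117).

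**Figure D5:**
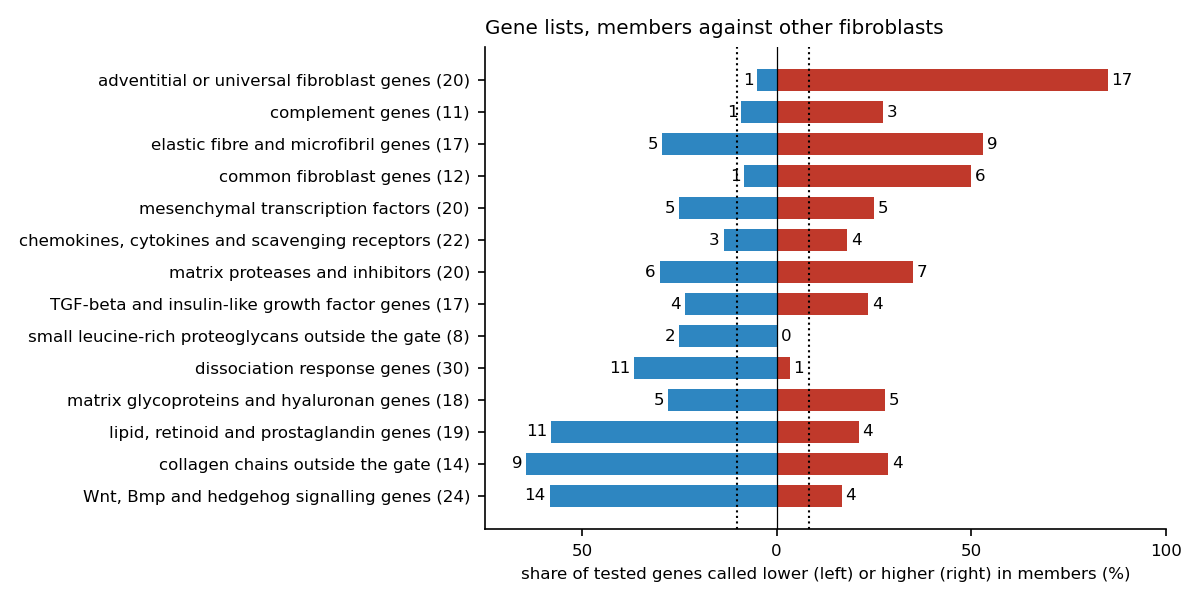
Percent of tested genes called lower (left, blue) and higher (right, red) in members against other fibroblasts for 14 gene lists, with the number called at each bar. The dotted lines are the background of 10.1% lower and 8.35% higher, and the adventitial list, with 17 of 20 genes higher, stands furthest to the right.

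Genes of other cell types and of the response to dissociation moved as follows. The summed level of the 8 smooth muscle markers was 76.5 to 1319 CPM in members and 552 to 3758 in other fibroblasts, lower in members in 7 of 7 libraries, and Acta2, Tagln and Mylk fell by 2.64, 2.59 and 2.35. The 9 immune markers summed to 104 to 1944 CPM in members and 71.6 to 2359 in other fibroblasts, the 7 urothelial markers to 32.2 to 719 and 43.3 to 681, and the 8 endothelial markers to 8.42 to 57.9 and 17.8 to 95.1. None of the tested immune, urothelial, pericyte, Schwann or mesothelial markers was called, and of the endothelial ones Kdr fell. Of 30 dissociation response genes, mostly immediate early genes, 11 fell and Dusp1 rose, and their summed level was lower in members in 6 of 7 libraries (20810 to 43600 against 28150 to 50810 CPM). Jun fell by 0.49 (2655 against 3691 CPM). Whether these shifts had a part in the other differences was not tested.

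Few differences between ages were detected. Among members of the whole-bladder libraries, 1 of 8433 genes (0.0119%) passed between the 22- and 24-month libraries and those of 3 and 12 months in a fit with a term for the sex mix, while 214 had an unadjusted p under 0.05. DESeq2 also called 1 gene, with 76 at an unadjusted p under 0.05. The gene was Acta2, smooth muscle actin, at 178 and 168 CPM at 22 and 24 months and 33.2, 20.7 and 13.3 CPM in the younger libraries, a log2 difference of 2.87 ± 0.27 (adjusted p = 0.00417, n = 2 and 3). The 2 groups did not overlap. Other fibroblasts showed the same order, with Acta2 at 1878 and 857 CPM at 22 and 24 months and 356, 358 and 249 CPM in the younger libraries. Of the 5 smooth muscle markers tested, Acta2 was the only one called, and the median difference of the 5 was 1.56. The call was lost without the term for the sex mix (adjusted p = 0.43) or without replicate 1 at 12 months (0.155), which leaves 0 genes. The count was 7 without the 22-month or the 3-month males and 203 without the 24-month library. An interaction term asked whether the difference between members and other fibroblasts changed with age, and 3 of 10125 genes passed (0.0296%), all with a more positive difference in older libraries. All were haemoglobin genes, whose counts lay mostly in the male libraries, and this fit had no term for the sex mix. On data simulated for the comparison of ages with 8117 genes, changes were placed only in genes above the median level. There 22.4% of 2-fold changes and 97.0% of 4-fold changes were recovered, and recovery for fainter genes was not measured.

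Members of the detrusor libraries differed from those of whole bladder in 484 of 9628 genes (5.03%), 311 higher (3.23%) and 173 lower (1.8%). DESeq2 gave 541 higher and 640 lower. The CPM of the 2 groups did not overlap for 18.1% of genes with detrusor higher and 13.2% with detrusor lower. An interaction term called 23 of 12380 genes (0.186%) whose difference from other fibroblasts depended on preparation, 19 with a more positive difference in detrusor (0.153%) and 4 with a more negative one (0.0323%). Preparation cannot be told apart from the age of 14 months, from gene lists that differ between the tables or from the sequencing of the libraries. The sex of the animals differed too: detrusor only came from females alone, and no whole-bladder library did. With only the mixed-sex whole-bladder libraries set against both detrusor libraries, 1650 of 9259 genes passed, 798 higher and 852 lower. Several of the largest differences were in genes with few or no UMIs in a group, and the part of gene lists in them was not tested. Mia2, an endoplasmic reticulum export factor, had 1112 UMIs in detrusor members and 0 in whole-bladder members, which makes it at least 151-fold higher. The 5 whole-bladder tables list Mia2, but it had 0 UMIs in their other fibroblasts as well, whereas other fibroblasts of the detrusor libraries held 65.3 and 83.7 CPM. Atp5o, a subunit of ATP synthase, had 0 UMIs in detrusor members and 2459 in whole-bladder members, at least 2010-fold lower. Both limits take 3 UMIs over the group with none as the floor. Atp5o also had 0 UMIs in the nuclei and sections, whose tables list the same 31053 genes as the detrusor tables. The other named genes with near-empty groups were Tonsl (7 against 1783 UMIs), Fdx1l (3 against 485), Lars2 (5080 against 71) and Bmp6 (1876 against 8).

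Values per library were as follows. Bmp6, a Bmp ligand, stood at 112 CPM in members of detrusor only and 73.7 in the detrusor-enriched library, against 0 to 2.67 in the 5 whole-bladder libraries (adjusted p = 0.000301). It was also higher in members than in other fibroblasts, by 1.64 ± 0.20 (adjusted p = 0.00015). Nearly all its UMIs in members came from the detrusor libraries, 1876 against 8 in whole bladder. Kcnn3, a calcium-activated potassium channel, stood at 109 and 59.6 CPM against 0 to 10.7 (adjusted p = 0.00501). Myh11, smooth muscle myosin, stood at 137 and 31.6 against 0 to 9.16 CPM, and 4 of the 8 smooth muscle markers (Myh11, Tagln, Cnn1 and Des) were higher in detrusor members. Efhd1 fell from 30.0 to 230 CPM in whole bladder to 7.61 and 8.46 in detrusor (adjusted p = 0.0374), and Spint2, an epithelial protease inhibitor, from 49.2 to 194 CPM to 16.0 and 6.32 (adjusted p = 0.0419). The 7 urothelial markers went the same way, summed to 197 to 719 CPM in whole-bladder members and 32.2 and 136 in detrusor members, without overlap (median log2 difference -2.82, 0 of 7 called). Their part in the Spint2 value was not tested. The count of genes fell to 24 without detrusor only and to 153 without the detrusor-enriched library, and it was 213 without replicate 1 at 12 months and 300 without the 24-month library. The Kcnn3 call was lost without detrusor only (adjusted p = 0.0796), the Myh11 call under 6 alternatives, and the Efhd1 and Spint2 calls under 5 and 6.

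The nuclei, the sections and the bulk libraries had no part in the choice of members, and the same thresholds were applied to the nuclei. Of 308 fibroblast nuclei, 61 (19.8%) passed. Clec3b stood at 1839 CPM in these (95% Poisson interval 1557 to 2159) and 795 (690 to 911) in the other fibroblast nuclei. Cd55 stood at 1202 (976 to 1465) against 598 (508 to 700), Cd34 at 908 (713 to 1139) against 532 (447 to 629) and Scara5 at 638 (476 to 836) against 266 (207 to 337). These 4 genes were higher in nuclei members by more than counting error, which is all the intervals cover, since there is 1 nuclei library. Of the 10 largest falls against all other fibroblasts, only Spon1 (0 UMIs against 23) lay beyond counting error, and of the 5 against the Inmt, Sult1e1 and Penk group, Col6a5 did (0 against 22). Krtdap, Dmkn and Sbsn had 2, 1 and 2 UMIs in nuclei members, too few to compare, as were most of the named falls. Of the 134 genes with at least 10 nuclear UMIs that were called higher by 1 or more log2 units in cells, 108 (80.6%) were higher in nuclei members, as were 38 of 163 (23.3%) called lower to that extent and 2369 of 5179 (45.7%) not called.

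In the sections a spot covers several cells, so only summed levels were compared. Among spots thinned to 4000 UMIs, those with at least 2 UMIs of Pi16 and Mfap5 were 39.0% of 1309 and 59.3% of 938 spots at 22 months and 45.4% of 929 and 56.3% of 1104 at 14 months. Spots with fewer UMIs in all were left out, 167 of them in the second 22-month section and 10 to 19 in the other 3. The adventitial list took 0.242% of UMIs in these spots and 0.166% in the other spots of the first 22-month section, 0.229% and 0.104% in the second, 0.254% and 0.175% in the first 14-month section, and 0.300% and 0.181% in the second. It was thus higher in all 4 sections beside Pi16 and Mfap5. The elastic fibre list went the same way, at 0.293% to 0.423% against 0.149% to 0.245%, but so did lists that did not lean up in members. The collagen chains outside the gate took 0.222% to 0.329% against 0.158% to 0.216%, the immune markers 0.226% to 0.285% against 0.133% to 0.182%, and Inmt, Sult1e1 and Penk 0.0281% to 0.0778% against 0.0100% to 0.0473%, each higher in all 4 sections. Smooth muscle genes took 3.33% to 4.68% against 1.36% to 3.29%, and the 4 keratins of the gate 0.252% to 0.323% against 0.408% to 0.526%. Spots rich in Pi16 and Mfap5 therefore also held more muscle and less keratin RNA, and the share of this in the list levels was not tested.

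In bulk RNA, where fewer cells of a type and less RNA per cell cannot be told apart, the member genes were higher after dissociation. Pi16 stood at 435, 308 and 304 CPM in intact bladders and 1303, 811 and 669 in dissociated ones, a rise of 1.52 ± 0.27 (log2, SE; adjusted p = 0.00197). Mfap5 rose by 1.61 (33.8 ± 7.66 to 94.8 ± 22.9 CPM) and Clec3b by 1.37 ± 0.18 (246 ± 16.1 to 591 ± 159, adjusted p = 0.000538). The 3 dissociated libraries lay above the 3 intact ones for each gene. Of 20 adventitial genes, 19 rose and 0 fell, against 9798 of 16538 genes (59.2%) that passed over the whole table, 4620 (27.9%) up and 5178 (31.3%) down. Krtdap, at 3.38 ± 0.60 CPM in intact and 11.3 ± 2.04 in dissociated bladders, rose by 1.85, Dmkn by 1.45 and Sbsn by 0.59. The genes named as lower in members also mostly rose, such as Bmp5 by 1.21 and Tnc by 0.79, so the shift was not limited to member genes. Markers of other cells shifted too: 8 of 8 smooth muscle markers (median -3.94), 4 of 4 adipocyte markers (-4.79), 5 of 6 pericyte and 5 of 6 Schwann cell markers were lower in dissociated bladders. Of 30 dissociation response genes, 29 were higher there (median 3.77). The part of these shifts in the values of member genes was not tested.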

How the data were processed

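The cell, nuclei and section tables hold UMI counts, and the bulk table holds read counts, per gene as the authors deposited them. Per the submitters' processing notes, Cell Ranger, Space Ranger and featureCounts of Subread were used with the mm10 build, without versions. Groups of cells were made from the counts alone. The members, the gene lists and the comparisons were chosen with earlier results of these data known. UMIs were summed per library over groups of at least 20 cells, over 26344 genes common to the 7 cell tables. Mitochondrial genes were left out because tables differ in them. The sums were tested with edgeR 4.0.16 (robust quasi-likelihood fits, TMM, filterByExpr, two-sided, Benjamini-Hochberg) in R 4.3.3, with the library as a block within libraries. CPM are plain counts per 1000000 UMIs or reads, and SE was the log2 fold change divided by the root of F. DESeq2 1.42.0 was an alternative. The script was tested on simulated data: in members against other fibroblasts, on 12228 genes, 100% of 2-fold and 59.7% of 1.5-fold changes were recovered. In each simulation, changes were placed only in genes above the median level, and each gene had the spread of the fitted trend. Recovery for fainter genes or genes with a wider spread was not measured. The named genes are first the 12 largest rises and 10 largest falls of members against other fibroblasts. These had an adjusted p under 0.05, at least 50 CPM on the higher side and the same direction in every library. Against the 2 named fibroblast groups, up to 5 each were taken by the same conditions. For age and preparation, up to 5 each were taken, with groups of libraries not overlapping in place of the same direction. Up to 4 abundant genes of each list, and Clec3b, were also named. Rule, mitochondrial, ribosomal protein and predicted genes were left out. A few genes are not reported here. Other list genes were named after their values were seen. No doublet caller was run, and leaving out doublet-like fibroblasts, in which immune, endothelial and Schwann cell markers made up 0.2% or more of UMIs, was an alternative. Samples were grouped by their labels, and exact permutation tests compared shares. Bulk libraries held 23083752 to 68760791 reads. Same-numbered bulk libraries deviated together in 2 of 3 pairs (r = 0.28, 0.37 and -0.05), and numbers were not treated as pairs because the third did not. Counting intervals are 95% and cover counting error only.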

Additional observations from a re-analysis of the deposited data

Results flagged for a closer look

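The log2 ratio of members to other fibroblasts (CPM + 1) was examined over the 7 libraries for 22 named genes, as was the share of members, 23 sets in all, and in 6 genes the detrusor-only library lay far from the other 6. For Scara5 it was 0.80 (nearest other library 2.24), for Sbsn 0.46 (1.87) and for Pcolce2 0.66 (1.81). For Tnc it was -0.23 (nearest -4.76), for Rbp4 -0.75 (-4.06) and for Prss35 -0.0342 (-3.36). Chance sets a sample this far apart in about 1 in 20 groups. The Car3 and Cxcl14 group made up 1.16% of fibroblasts in this library. Its part in these values was not tested.

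The difference between members and other fibroblasts itself differed between detrusor and whole-bladder libraries for 23 of 12380 genes (0.186%) by an interaction term in edgeR. Among the genes of the lists, 5 were called. For Dpp4 the log2 difference was smaller in detrusor by 1.58, written as an interaction of -1.58 (adjusted p = 0.0365). Dpp4 stood at 23.1 to 58.9 CPM in whole-bladder members and 7.58 to 18.1 in other fibroblasts, while in detrusor members it stood at 36.7 and 24.4 against 41.6 and 18.7. The interaction was 1.04 for Bgn, the proteoglycan biglycan (adjusted p = 0.031), 1.75 for Spon2, a matrix protein (0.00371), 1.05 for Igfbp7 (0.0123) and 1.13 for Sparc, a collagen-binding matricellular protein (0.0112). For these 4 genes members lay below other fibroblasts in all 5 whole-bladder libraries, and in detrusor only they lay above them. In the detrusor-enriched library members lay above other fibroblasts for Bgn (2028 against 1541 CPM) and Spon2 (283 against 139) and below them for Igfbp7 (2763 against 2878) and Sparc (3897 against 4170). Each of these tests compares 2 libraries with 5.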

How the results depend on the processing

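The comparison of members with other fibroblasts called 2290 genes. The count was 430 without the library block, 1397 with cells thinned to 2000 UMIs, 1038 without the 2 male libraries and 1162 in those alone, which were added after seeing the data. Leaving out 1 library gave 1396 (without detrusor enriched) to 2969 (without detrusor only). Against the Inmt, Sult1e1 and Penk group, leaving out 1 library gave 410 (without detrusor enriched) to 1371 (without detrusor only) and 436 without the 22-month males. Against the Car3 and Cxcl14 group every count stayed within 1.5 times the main one. Between ages the count was 24 without a filter, 0 without the sex-mix term, and 0 (without replicate 1 at 12 months) to 203 (without 24 months) with 1 library left out, 7 each without the 22-month or 3-month males. Between detrusor and whole bladder it was 769 without a filter and 1181 with DESeq2. With only the mixed-sex whole-bladder libraries against both detrusor libraries, the all-female one included, it was 1650. With 1 whole-bladder library left out it was 213 (without replicate 1 at 12 months) to 477, and 300 without 24 months. Counts without either detrusor library are given above.

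The share of members in whole-bladder minus detrusor libraries was -0.93 percentage points. It was 0.19 without thinning, 5.45 at 1000 UMIs, -5.72 at 4000 UMIs, and -7.39 to 5.53 with 1 library left out. Older minus younger libraries gave -1.34, 2.21 at 1000 UMIs, -9.39 at 4000 UMIs (where the share of the 22-month males was 10.5%), and -11.2 to 3.76 with 1 library left out. For the bulk libraries the replicate block gave 10118 genes against 9798, and leaving out 1 library 8128 to 9781. Of 773 values of named genes under alternatives, 743 kept direction and call, 30 lost the call and 0 reversed. They cover 54 pairs of gene and comparison, from the largest rises and falls and Clec3b, and not the genes named from lists. The rises and falls were picked for passing with the same direction in every library or without overlap. Reversals were therefore unlikely from the start, and their count says little about stability.

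On simulated data for detrusor against whole bladder, with 9230 genes, changes were placed only in genes above the median level. Of these, 4.48% of 2-fold and 57.6% of 4-fold changes were recovered, so differences of these sizes were often missed there. Recovery for fainter genes was not measured. In the 22-month and 3-month male libraries, the shallowest, 18.2% and 22.1% of members had UMIs of Pi16 and none of Mfap5.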

Other observations

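The haemoglobin genes Hba-a1, Hba-a2 and Hbb-bt were the 3 of 10125 genes called in the interaction with age (0.0296%), which had no term for the sex mix. Their counts in whole bladder lay mostly in the male libraries, a single library at each age, so a change with age is not shown. The interaction was 7.51 for Hba-a1, 7.44 for Hba-a2 and 7.10 for Hbb-bt on the log2 scale, and these genes were named after their values were seen. Hba-a1 stood at 102 CPM in members and 2.31 in other fibroblasts of the 22-month males, and at 22.7 and 114 CPM in the 3-month males. In the 3 mixed-sex whole-bladder libraries it stood at 0 to 3.06 CPM in members and 0 to 0.70 in other fibroblasts. Hba-a1 and Hba-a2 are near-identical copies.

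Bdnf, a neurotrophin, and Ccl21a, a chemokine of lymphatic vessels that has near-identical copies, were among the genes whose difference varied between preparations, and both were named after their values were seen. Bdnf stood at 8.22 and 7.94 CPM in detrusor members and 0 to 2.30 in whole-bladder members, while other fibroblasts held 10.7 and 30.1 in detrusor and 10.6 to 111 in whole bladder. Ccl21a stood at 53.1 and 20.4 CPM in detrusor members and 0 to 2.07 in whole-bladder members, while other fibroblasts held 29.6 and 17.0 in detrusor, 75.6 in replicate 1 at 12 months and 0 to 2.45 in the other 4 whole-bladder libraries.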
